A study of Homo sapiens with 2 samples.

Results

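The ICAM to PDE4A region of chromosome 19 is a stretch of 230 kb in band 19p13.2 (hg19, chr19:10360000-10590000) that holds 4 genes of intercellular adhesion molecules, ICAM1, ICAM4, ICAM5 and ICAM3, followed by TYK2, CDC37 and PDE4A. The members are the 42 peaks, of 20085 listed in all, that overlap this stretch by at least 1 base. The region was chosen because it holds the longest run of neighbouring peaks in the list, so its number of peaks and their signal are given as a description and no test was made of them. NB4, a human acute promyelocytic leukemia line that carries the PML-RARA fusion, was profiled by CUT&Tag, in which an antibody brings a transposase to chromatin so that the DNA beside the bound protein is tagged and sequenced. The series has 1 group, NB4 cells with an antibody to PML-RARA and no stated treatment, in 2 replicates, for which the authors deposited 1 joint peak list. No value per replicate, second group, control antibody or input was analysed here, so no value below has a spread between replicates. Separate cultures are not mentioned for the replicates, and it is not stated whether the antibody also binds PML or RARA outside the fusion.

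PML-RARA joins the nuclear body protein PML to the retinoic acid receptor alpha. The fusion binds DNA through the receptor part, alone or with its partner RXR, and it is known for holding myeloid genes in a repressed state and for blocking promyelocytes from maturing into granulocytes. The ICAM proteins are cell surface ligands of the immunoglobulin superfamily. Leukocyte integrins such as LFA-1 bind them when white cells adhere to endothelium and to each other. TYK2, a kinase of the Janus family, carries signals from interferon and interleukin receptors, CDC37 is a co-chaperone that delivers kinases to HSP90, and PDE4A is a phosphodiesterase that breaks down cyclic AMP.

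The DNA just before 3 of the 7 start sites is shown because these windows hold matches to the motifs marked below and lie before starts that are covered by the region's 3 strongest peaks. The start of ICAM5 lies under one of these peaks too, but its window held no marked motif and is not shown. Each run is the 250 bases before the outermost start that RefSeq lists on GRCh38.p14, 5′ to 3′ on the strand of the gene. Capitals mark matches on either strand to a retinoid receptor half-site (the hexamer AGGTCA, the hexamer GGGTCA, the hexamer AGTTCA or the hexamer GGTTCA), to GAGGAAG (PU.1 and ETS), to TGTGGT (RUNX), to TTGCNNCAA (C/EBP), to GGAANTTCC (one form of the NF-kappaB site) and to TATAAA (the core of the TATA box). No 2 of the marked matches overlap. The windows are at chr19:10270870-10271119 (plus strand) for ICAM1, chr19:10286705-10286954 (plus strand) for ICAM4 and chr19:10416523-10416772 (plus strand) for PDE4A, all on GRCh38.p14, whereas the peaks are on hg19.
ICAM1: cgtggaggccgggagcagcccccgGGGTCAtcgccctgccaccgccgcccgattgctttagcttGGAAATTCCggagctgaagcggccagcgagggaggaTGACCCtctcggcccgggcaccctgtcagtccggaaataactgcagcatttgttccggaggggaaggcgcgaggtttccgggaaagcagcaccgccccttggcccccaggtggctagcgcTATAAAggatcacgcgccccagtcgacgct
ICAM4: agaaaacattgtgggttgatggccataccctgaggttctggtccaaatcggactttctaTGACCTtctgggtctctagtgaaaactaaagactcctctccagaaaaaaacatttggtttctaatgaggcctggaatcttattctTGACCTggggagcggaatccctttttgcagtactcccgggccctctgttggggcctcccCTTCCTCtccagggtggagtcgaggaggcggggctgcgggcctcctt
PDE4A: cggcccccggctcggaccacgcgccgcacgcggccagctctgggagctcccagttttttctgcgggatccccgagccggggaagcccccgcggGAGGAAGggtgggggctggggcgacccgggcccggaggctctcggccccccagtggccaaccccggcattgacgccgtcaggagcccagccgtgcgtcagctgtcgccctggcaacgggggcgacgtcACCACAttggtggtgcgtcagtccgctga

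In the ICAM1 window, a GGGTCA on the gene strand lay 226 to 221 bases before the start and a second half-site, on the other strand, lay 150 to 145 bases before it. Between them, 186 to 178 bases before the start, stood GGAAATTCC, and TATAAA stood 30 to 25 bases before the start. The ICAM4 window held 2 half-sites, both on the other strand, 191 to 186 and 106 to 101 bases before the start, and 1 match to the PU.1 and ETS letters. PDE4A had 1 match to the PU.1 and ETS letters and 1 to the RUNX letters, and no half-site. The outermost windows of ICAM5, ICAM3, TYK2 and CDC37 held none of these motifs. GGGCGG, the SP1 letters, which are not marked, occurred in 3 of the 7 windows, those of ICAM1, ICAM5 and CDC37.

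Half-sites are common letters: 33.8% of all 35116 RefSeq promoter windows of this length held at least 1, and 2 of the 7 members did. The PU.1 and ETS letters occurred in 11.2% of all windows and in 2 of the 7, the RUNX letters in 11.0% and in 1, the TATA box in 10.7% and in 1, and the SP1 letters in 42.6% and in 3. GGAANTTCC was the rarest of the motifs found, in 0.826% of all windows, and ICAM1 held it. The C/EBP letters (1.62% of all windows) and a direct repeat of 2 half-sites with 0 to 8 bases between them (0.649%) occurred in none of the 7. The background counts every start that RefSeq lists, whereas the 7 windows are the outermost ones of 13 listed for the members. Of the 6 further windows, all of ICAM3 or PDE4A, 2 held a half-site (1 of each gene), the same ICAM3 window held the C/EBP letters and 4 held the SP1 letters, and the other motifs occurred in none of the 6. These are matches of letters in a short window, and the wide peaks of the region reach far beyond it.

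The 42 peaks of the region had a summed total signal of 1719371, where total signal is the coverage of a peak summed over its bases as the authors' peak caller gives it. This was 0.618% of the signal of the list, from 0.209% of its peaks. Peaks covered 46.6% of the region (107 kb of 230 kb), against 0.779% of chromosomes 1 to 22 and X. Single peaks ranged from 483 to 14345 bp in length, with a median of 1800.5 bp, against a median of 892 bp in the rest of the list. Their total signal ranged from 2938 to 313030, with a median of 14642 against 6472 in the rest of the list. The maximum signal, the highest coverage reached within a peak, ranged from 10 to 264 with a median of 24.5, against 22 in the rest of the list.

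**Figure D1:**
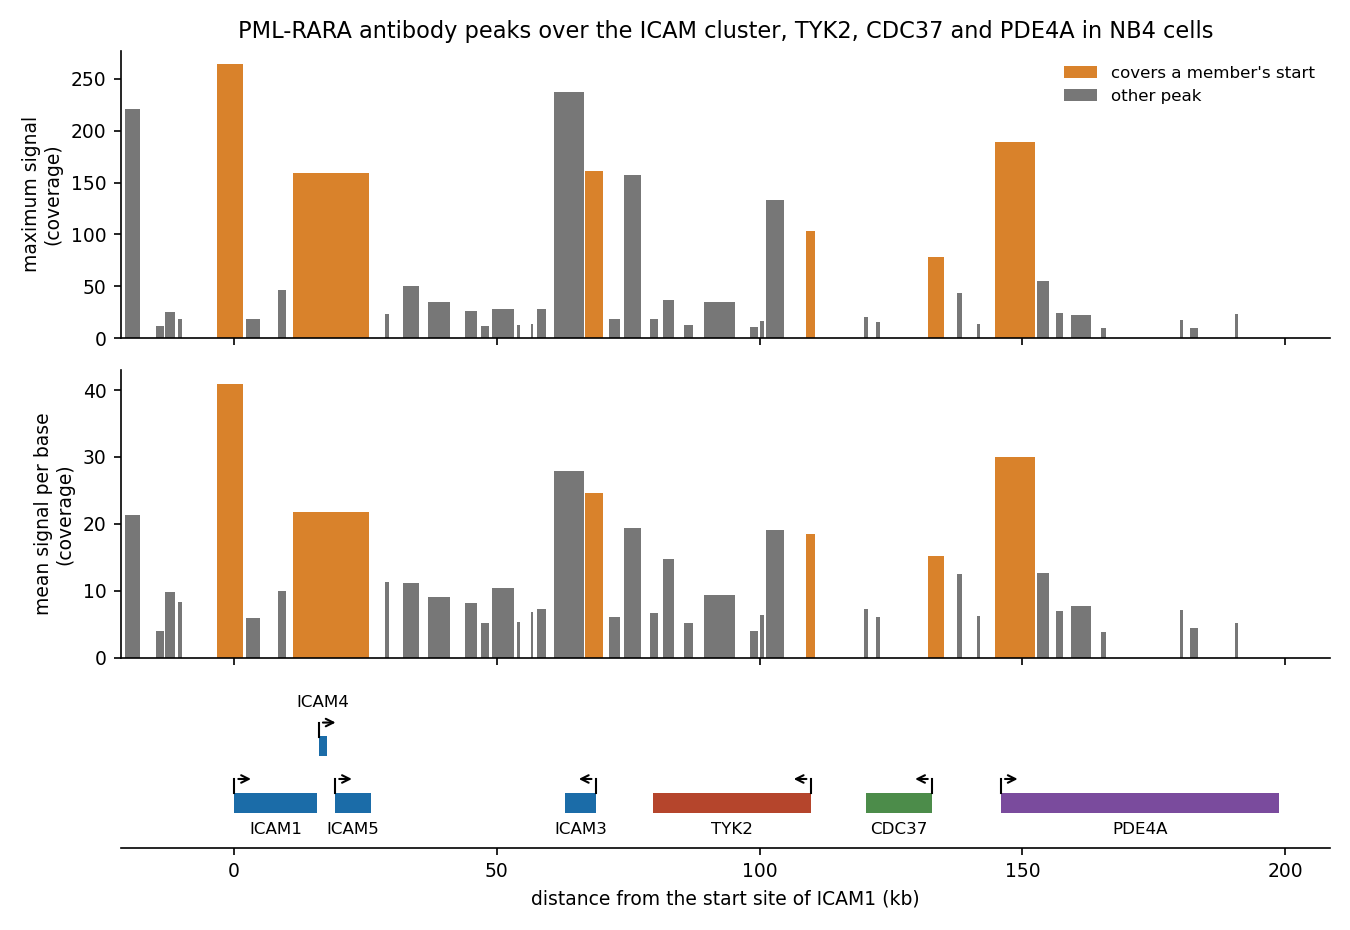
Maximum signal (top) and mean signal per base (middle) of each of the 42 peaks in units of coverage, drawn at their width along the distance in kb from the start of ICAM1, with gene bodies and start arrows below; orange peaks cover the start of a member and grey ones do not. Every start lies under an orange peak, the tallest of which, at ICAM1, reaches 264, and grey peaks of 221 and 237 stand before ICAM1 and over ICAM3.

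All 7 start sites lay under a peak, in a region chosen for its run of peaks and 46.6% covered by them. The share of all gene starts under a peak was not counted, so this count only describes the region. Because ICAM4 and ICAM5 share a peak, 6 peaks covered the 7 starts, and these 6 held 52.3% of the signal of the region. They had a median total signal of 142818 and a median maximum of 160, against 11181.5 and 22.5 for the 36 other peaks. The start peaks were also longer, with a median of 4157.5 bp against 1593.5 bp. Both signal measures rose with length in the region, and whether length bears on the contrast was not tested. Starts of other genes listed here, such as MRPL4, ZGLP1, FDX2 and RAVER1, and further starts of ICAM3 and PDE4A were not placed on the peaks. Some of the 36 may cover such a start, so the contrast is not one of starts against all other DNA. The groups overlapped: the weakest start peak, at TYK2, had a total of 33079, while the strongest of the other peaks, over the downstream part of ICAM3, had 157849.

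ICAM1, the endothelial and leukocyte ligand of LFA-1 whose expression rises with inflammatory cytokines, had the tallest peak of the region over its start. The peak lay at chr19:10378262-10383213 and reached from 3.24 kb before the start to 1.71 kb after it. Its total signal was 202589 and its maximum 264, which ranked 61 and 88 among the 20085 peaks. Its mean signal per base, 40.9, was also the highest of the region. ICAM1 (chr19:10381500-10397300, plus strand) had 2 further peaks within its body, of 15881 and 15594, and the front of a much wider peak over its end. In all, 66.4% of the body lay under a peak. The middle part was the barest: of 3 equal parts of the body, counted from the start, 82.9%, 29.6% and 86.6% were covered.

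The peak over the end of ICAM1 was the longest and strongest of the region and ran on without a break across ICAM4 and most of ICAM5. It lay at chr19:10392738-10407083, was 14345 bp long and had a total signal of 313030, 18.2% of the signal of the region. In the list it ranked 5 by length and 14 by total signal. Its height was less extreme, with a maximum of 159 (rank 349) and a mean of 21.8 per base. ICAM4, which encodes the Landsteiner-Wiener blood group antigen of red cells, is a short gene (chr19:10397600-10399200, plus strand) that lay under this peak from end to end. ICAM5, which encodes telencephalin, an adhesion molecule of forebrain neurons, has its body at chr19:10400700-10407500 (plus strand), and 93.9% of it was covered by the same peak. The peak began 4.86 kb before the start of ICAM4 and 7.96 kb before that of ICAM5, so its signal cannot be divided between the end of ICAM1, the start of ICAM4 and the start of ICAM5. The GRCh38 gene table also places the antisense RNA gene ICAM4-AS1 and, overlapping ICAM1, the noncoding RNA gene LIMASI in this part of the chromosome, and the peaks have no strand.

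Between ICAM5 and ICAM3 the peaks were many, and all but the one that enters ICAM3 were lower than the peaks over the ICAM starts. This stretch of 37 kb, where the gene table lists ZGLP1, FDX2 and RAVER1, was touched by 10 peaks. The 9 of them that lay before the one that enters ICAM3 reached maxima of 12 to 50 and totals of 2938 to 43895. These maxima lay on both sides of the region's median of 24.5. Peaks still covered 57.0% of the stretch, and its total signal, taking each peak's signal as spread evenly over its bases, was 6234 per kb.

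ICAM3, a ligand of LFA-1 that resting leukocytes carry, was covered by a pair of tall peaks that lay 260 bp apart, the shortest gap of the region. Its body (chr19:10444500-10450300, minus strand) was 95.5% covered. The peak over the start, at chr19:10448276-10451640, had a total of 83046 and a maximum of 161. The peak over the downstream part, at chr19:10442345-10448016, was the stronger of the pair, with a total of 157849, a maximum of 237 and rank 97 in the list. It ran 2155 bp past the end of ICAM3 into the stretch next to RAVER1. Behind the start of ICAM3, in the 10.9 kb before TYK2, a further peak at chr19:10455786-10458859 reached a maximum of 157 with a total of 59579, although no member starts there.

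TYK2 had a modest peak at its start and a stronger one inside the gene. Its body (chr19:10461200-10491200, minus strand) was touched by 8 peaks that covered 57.3% of its 30.0 kb. The start peak at chr19:10490287-10492075 was the shortest of those over a start (1788 bp) and had a total of 33079 and a maximum of 103. The strongest peak of the gene, at chr19:10482623-10486101, had a total of 66568 and a maximum of 133, and its near edge lay 5099 bp inside the gene from the start. A wide, low peak at chr19:10470993-10476791 added a total of 54405 with a maximum of 35. Signal was therefore spread over the gene: the 3 equal parts from the start held 45.3%, 29.8% and 24.9% of it.

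CDC37 was the barest member. Of its body (chr19:10501800-10514300, minus strand), 16.2% lay under a peak, and the middle of its 3 equal parts had none listed. The peak over its start, at chr19:10513594-10516501, had a total of 44332 and a maximum of 78, and it lay mostly outside the gene, with 2.20 kb before the start and 0.706 kb after it. The gene table places the microRNA gene MIR1181 beside this start. The other 2 peaks of CDC37, towards its end, had totals of 5817 and 5588. On either side of them lay the longest gaps between TYK2 and PDE4A, 9318 and 9099 bp without a listed peak.

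PDE4A had the second strongest peak of the region over its start and few peaks beyond the front of the gene. The peak at chr19:10526363-10533827 was 7464 bp long, with a total of 223502 (rank 48), a maximum of 189 and a mean of 29.9 per base. It began 1.04 kb before the start and reached 6.43 kb into the body (chr19:10527400-10580300, plus strand). Of the 8 peaks of the gene, 4 more followed within the next part, with totals of 29928, 10072, 28332 and 3853. After a gap of 14121 bp, the longest of the region, came 3 small peaks with totals of 4377, 6826 and 3247. Of 3 equal parts of the body, the first held 93.4% of its signal, the middle 2.95% and the last 3.61%. RefSeq lists 5 promoter windows for PDE4A, of which only the outermost start was placed on the peaks here.

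**Figure D2:**
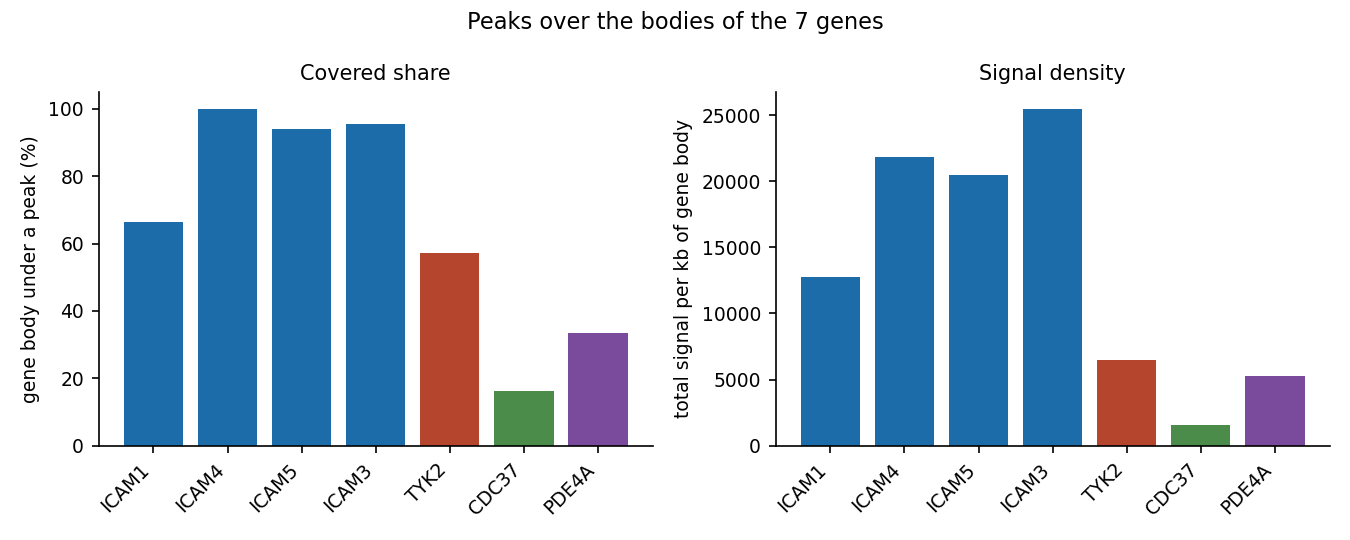
Share of each gene body under a peak in percent (left) and total signal per kb of gene body (right) for the 7 genes in their order along the chromosome; each bar is 1 value from the merged list, with no error. The 4 ICAM genes have the tallest bars in both panels, from 66.4% to 100% covered and from 12729 to 25488 per kb, and CDC37 has the lowest, 16.2% and 1539 per kb.

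Set side by side per kb of gene body, with each peak's signal spread evenly over its bases, the ICAM genes ranked above the other 3. Total signal per kb was 25488 in ICAM3, 21822 in ICAM4, 20483 in ICAM5, 12729 in ICAM1, 6492 in TYK2, 5276 in PDE4A and 1539 in CDC37. ICAM4 and ICAM5 take their values from 1 shared peak and are not separate measurements. The same peak is the only one over the last of 3 equal parts of the ICAM1 body, which held 49.5% of the signal of ICAM1. The value of ICAM1 is therefore not separate from theirs either. The bodies of the 4 ICAM genes made up 13.0% of the length of the region and held 30.4% of its signal. The genes also differ in length: the 4 ICAM bodies are 1.6 to 15.8 kb long, against 12.5 to 52.9 kb for the others. The ranges overlap, as ICAM1 (15.8 kb) is longer than CDC37 (12.5 kb). Whether length bears on the order was not tested. Without values per replicate, no neighbours in this order can be said to differ. The bodies of all 7 genes held 59.1% of the signal in 54.5% of the length, so the remaining 40.9% lay between or beside them.

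Wide and tall peaks made up much of the region. Of the 42 peaks, 19 were longer than 2 kb, against 11.0% of all listed peaks, and 7 were longer than 4 kb, against 2.12%. A maximum of at least 100 was reached by 9 of the 42, against 5.15% of the list, and 4 stood among the top 1.00% of the list by total signal. The region was chosen from this list, so these shares describe it and say nothing more. Of the 9 tall peaks, 5 covered the start of a member and 4 did not. Starts of other genes, such as MRPL4 and RAVER1, were not placed on the peaks, so any of the 4 may cover one. Those 4 were the peak within TYK2, the one over the downstream part of ICAM3, the one between ICAM3 and TYK2, and the first peak of the region at chr19:10360818-10363657 (total 60502, maximum 221), which stands well before ICAM1 on the side where the gene table lists MRPL4. In that first peak the mean signal was 9.64% of the maximum, the lowest such share of the region, so its height was concentrated in a small part of its length. Signal was uneven among members: the 4 strongest peaks held 52.2% of it and the 10 strongest 73.6%.

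**Figure D3:**
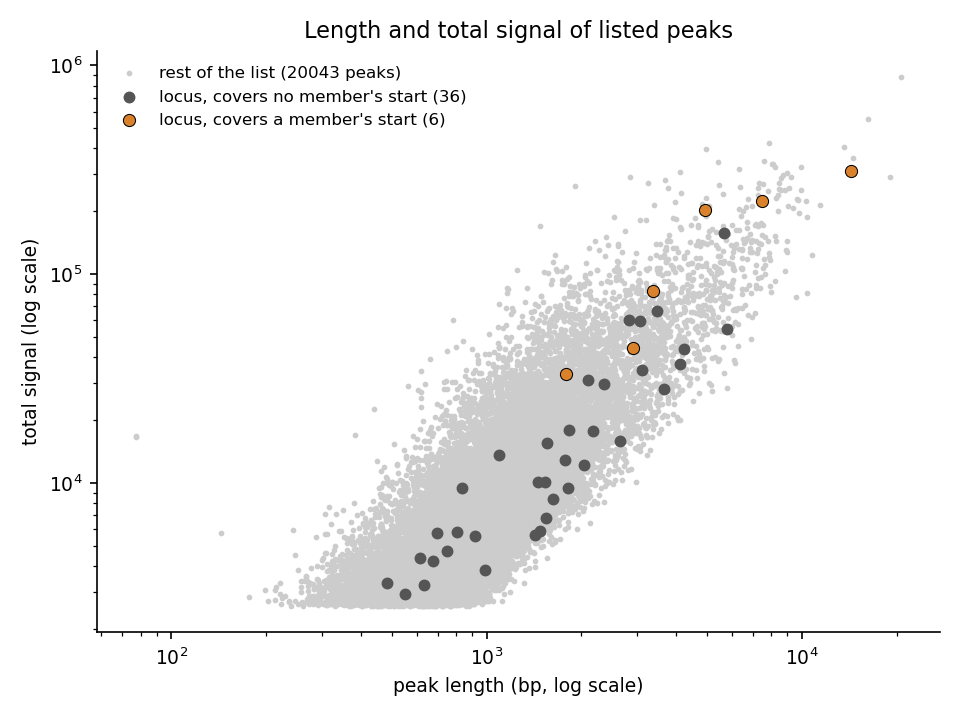
Length in bp against total signal of every listed peak, both on log scales, with the rest of the list in light grey. The 36 peaks of the region that cover no start of a member are in dark grey and the 6 that cover one are in orange. Orange points run from 1788 bp and 33079 to 14345 bp and 313030, and the dark points reach down to the lower edge of the list.

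Total signal grew with length. Spearman's rho between length and total signal was 0.936 over the 42 peaks and 0.805 over the whole list, and between length and maximum it was 0.707 and 0.470. Total signal is a sum over bases, and all peaks share the same pooled libraries, so these values are descriptions only. Of the 41 gaps between neighbouring peaks of the region, 12 were shorter than 1 kb and 7 shorter than 500 bp, with a median of 1719 bp. Pieces of one broad stretch may therefore be listed as separate peaks, and joining peaks across gaps of up to 1 kb left 30.

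The run that led to the choice of the region joined 39 peaks over 186.6 kb, from chr19:10360818 to 10547377, with no gap above 10 kb. It took in the ICAM genes, TYK2, CDC37 and the front of PDE4A, and the 3 peaks in the back of PDE4A lay outside it. The next longest run of the list, on chromosome 16, had 38 peaks and a summed signal of 585881, against 1704921 in the ICAM to PDE4A run. The run with the most signal, also on chromosome 19 at chr19:8545334-8658104, had 20 peaks and 2045160. Within it the strongest peak held 42.9% of the signal, against 18.4% in the ICAM to PDE4A run. Per kb of its span the ICAM to PDE4A run had 9139, and it ranked 3 of the 17 runs of at least 20 peaks, whose median was 6400. With gaps of up to 20 kb allowed, it grew to 48 peaks and stood behind a run of 52, and with gaps of up to 5 kb, peaks from the start of ICAM1 to that of TYK2 remained joined, 25 in all, against 20 in the longest other run.

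**Figure D4:**
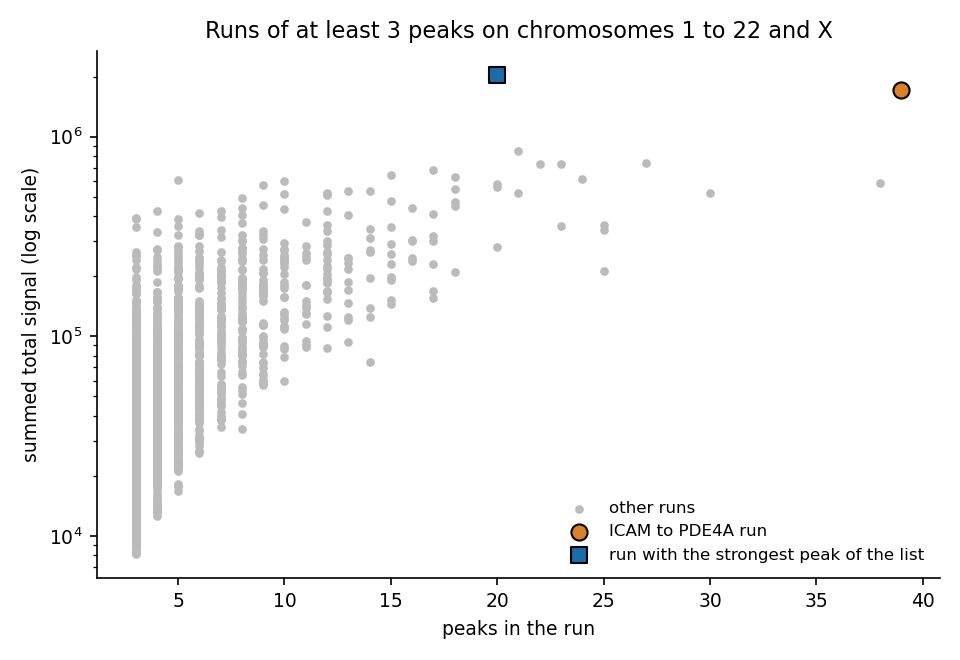
Number of peaks against summed total signal (log scale) for the 1735 runs of at least 3 peaks on chromosomes 1 to 22 and X, a run being a chain of peaks in which no gap exceeds 10 kb. The ICAM to PDE4A run (orange) has 39 peaks and 1704921, and the run with the strongest peak of the list (blue square) has 20 peaks and 2045160.

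Among 13187 other windows of 230 kb laid end to end along chromosomes 1 to 22 and X, 2 held at least 42 peaks, on chromosomes 11 and 16, and 1 had at least as much total signal. These windows lie on a fixed grid that can cut a run, whereas the region was chosen to hold its run. The counts are therefore not like for like and only describe the list. Most such windows were empty, with a median of 0 peaks. The region made up 0.389% of the length of chromosome 19 and held 2.63% of its peaks and 6.10% of its signal. A run ends by definition at a gap above 10 kb, so sparse peaks around the run come with the choice of the region. The last peak before the region ended 12405 bp outside it with a total of 15656, against 60502 for the first peak inside, and the first peak after it lay 12153 bp outside with a total of 4537, against 3247 for the last peak inside.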

How the data were processed

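One CUT&Tag peak list of NB4 cells, merged from 2 replicates of 1 group, was analysed. Per the submitters' processing notes, the peak caller was SEACR, the build hg19, and Trimmomatic, Bowtie2, bedtools and SAMtools were also used. None of the sources used here gives their versions, SEACR's cutoff, any control track or how replicates were merged. The deposited signal columns were read as SEACR's total and maximum signal: the column headed width exceeded the length in all 20085 rows and never exceeded length times maximum. No scaling to depth is stated and the depth is unknown, so a threshold on signal may drop weak peaks, and broad stretches may be split. Peak length is the end less the start, and positions are as listed.

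Gene bodies on hg19 came with the choice of the region, to the nearest 100 bp. No hg19 sequence or exon annotation was used here, so exons, introns and UTRs were not assigned. Names of neighbouring genes came from a RefSeq table on GRCh38.p14, without converting coordinates. All 7 members matched by symbol; body lengths differed between the sources by at most 0.304 kb (ICAM1). Promoter sequences are from RefSeq on GRCh38.p14, and motifs were searched in the 250 bases before the start. Cytogenetic bands came from circlize 0.4.16. Intervals were handled with pandas 2.3.3 and tested on simulated data. The genes, region and lists were chosen with earlier results of these data known; named are the 7 genes, their neighbours, and the strongest and start peaks, and other peaks were picked after their values were seen.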

Additional observations from a re-analysis of the deposited data

How the results depend on the processing

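With peaks kept at a maximum signal of at least the list's median (22), the region had 25 peaks, a summed signal of 1604304, 37.7% of its length covered and a longest run of 18 peaks. With peaks kept at a total signal of at least the list's upper quartile (13912), the values were 21 peaks, 1570793, 36.3% and 17 peaks. Under both thresholds all 7 genes kept a peak within 2 kb of the start and over the body. The longest run still had more peaks than any other run of the list (12 and 11 in the longest other). The region was chosen for holding the longest run of this same list, so that rank is a description only. Widening the window by 50 kb on each side gave 52 peaks, a signal of 1842230 and 36.5% covered. Runs with gaps of at most 5 kb reached 25 peaks, and with gaps of at most 20 kb 48. Start windows of 500 bp, 1 kb and 5 kb gave 7 of 7 genes, and requiring a peak's midpoint inside the 2 kb window gave 5, without ICAM4 and PDE4A. Requiring the midpoint inside the gene body gave 5 of 7, without ICAM4 and ICAM5. The share of all genes with a peak at the start or over the body was not counted under any setting. These gene counts therefore only describe the region. Counting whole peaks gave ICAM1 547094, ICAM4 and ICAM5 313030 each, ICAM3 240895, TYK2 215053, CDC37 55737 and PDE4A 310137. Counting signal in proportion to the overlap gave ICAM1 201119, ICAM4 34914, ICAM5 139287, ICAM3 147832, TYK2 194755, CDC37 19242 and PDE4A 279085, because whole peaks that reach past a body or are shared are then cut at its ends. Adding 2 kb upstream changed none of the 7 sums. No paired analysis was possible because the list gives no value per replicate, and leaving out a replicate was not possible for the same reason.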

Other observations

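Relatives of the members lie elsewhere in the genome, and without a full hg19 annotation they were placed only by cytogenetic band, which holds many genes, so no peak is assigned to them. Of 13 such genes, 10 lay in bands above the median density of 741 bands, 3.45 peaks per Mb. Several share a band, so these are not 13 separate values. The median is over bands and not over genes, and the share of all genes in bands above it was not counted. The count of 10 therefore says nothing particular about these genes. ITGB2, the beta chain of the leukocyte integrins that bind ICAM proteins, lay in 21q22.3 with 31.3 peaks per Mb (rank 36). The alpha chain genes ITGAL, ITGAM and ITGAX all lay in 16p11.2 with 20.9 per Mb (rank 79), and ICAM2, the ICAM gene outside the cluster, lay in 17q23.3 with 14.7 per Mb. JAK3 and PDE4C shared 19p13.11, one of the densest bands, with 47.8 per Mb (rank 9). JAK2 lay in 9p24.1 with 4.55 per Mb (rank 322). JAK1 and PDE4B, together in 1p31.3 with 2.37 per Mb, and PDE4D, in 5q12.1 with 2.25, lay below the median. The HSP90 genes, whose products work with CDC37, lay in bands with 23.2 (HSP90AB1) and 13.9 (HSP90AA1) per Mb. The ICAM to PDE4A region itself had 183 peaks per Mb, against 56.7 per Mb over the whole of 19p13.2. It was chosen for its run of peaks and is part of that band, so this contrast is a description only.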
